A study of Bos taurus with 12 samples.

Results

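The miR-2284 and miR-2285 families are 2 large groups of closely related microRNAs (miRNAs) found in cattle and other ruminants. They were followed here in extracellular vesicles (EVs), membrane-bound particles that cells release, from the blood plasma of heifers. Members were all rows of the deposited miRNA table whose name begins with bta-miR-2284 or bta-miR-2285, rows with only zeros included. They were 63 of 783 rows, with 31 named miR-2284 and 32 named miR-2285. The study compared 6 heifers, of which 3 responded strongly (H, high) and 3 weakly (L, low) to ovarian superstimulation. Plasma was taken on Day 7 of an unstimulated cycle (U) and on Day 7 of a superstimulated cycle (S), which gave the groups UL, UH, SL and SH with 3 libraries each. All animals were crosses of Charolais or Limousin, aged 21 to 32 months, and follicle-stimulating hormone (FSH) was given over 4 days from Day 10 of the cycle before the S cycle, so that the S plasma was taken after the treatment and the ovulation that followed it. Per the study's methods, the U cycle followed synchronization with progesterone, gonadotrophin-releasing hormone and prostaglandin. Prostaglandin was given again with the FSH, and the heifers were then inseminated. In comparisons of the cycles, the FSH therefore cannot be told apart from the prostaglandin given with it, insemination and any embryos. The same heifers gave both the U and the S plasma, and libraries with equal numbers were assumed to be those of 1 heifer.

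A miRNA is a short RNA that guides a silencing complex to messenger RNAs. Pairing runs mainly through its seed, the stretch from base 2 to base 8, so that miRNAs with the same seed can share targets. Members of a family come from several hairpin precursors, often in different parts of the genome, and a hairpin can give a mature miRNA from its 5p or its 3p arm. miRNAs carried in plasma EVs come from many tissues, with blood cells as a large source. Fewer vesicles from a cell type and less of a miRNA per vesicle cannot be told apart in such libraries.

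The sequences of the members with a read in 2 or more of the 3 libraries of any group are shown first, since every comparison rests on them. They are written 5′ to 3′ with T for U, as the deposited table lists them, with the seed in capitals. The miR-2284 members come first, from the most to the fewest reads.
miR-2284x: tGAAAAGTtcgttcgggtttt
miR-2284ab: tAAAAGTTtggttgggttttt
miR-2284w: aAGAGTTTgttcgggtttctc
miR-2284z: aAAAAAGTttgtttgggttttt
miR-2284k: gAAAAGTTcggtcgggttttt
The 3 miR-2285 members of this kind read in the other direction.
miR-2285t: aGAATCTGgatgaactttttgg
miR-2285p: aAAAACTTgagtgaacttttgg
miR-2285o: aAACCCGAacgaacttttgg
The next 3 are shown for their likeness to miR-2284x. miR-2284j and miR-2284m are the nearest to it with 2 edits each, an edit being 1 base changed, added or lost. miR-2284y lies 4 edits away and has the longest run of bases in common with it.
miR-2284j: gAAAAGTTcgttcaggtttt
miR-2284m: gAAAAGTTtgttcgggtttt
miR-2284y: aAAAGTTCgttcgggtttttc

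The listed sequences form 2 sets that are near reverse complements of each other. By the number of edits to miR-2284x and to its reverse complement, 33 members ran in the direction of miR-2284x and 30 in the opposite one. The first set held 29 miR-2284 members with 4 miR-2285 members (miR-2285ae, miR-2285af, miR-2285w and miR-2285z). The second set held 28 miR-2285 members together with miR-2284h-3p and miR-2284t-3p, which are the 3p arms of hairpins whose 5p arms lie in the first set. Bases 1 to 18 of miR-2285o can pair in 1 unbroken run with bases 3 to 20 of miR-2284x. Longer runs were found between miR-2285q and miR-2285z, with 22 bases, and between miR-2284z and miR-2285y, with 21 bases. Members of the first set took 680 of the 709 reads of the families and those of the second set took 29, which is 4.09%.

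**Figure D1:**
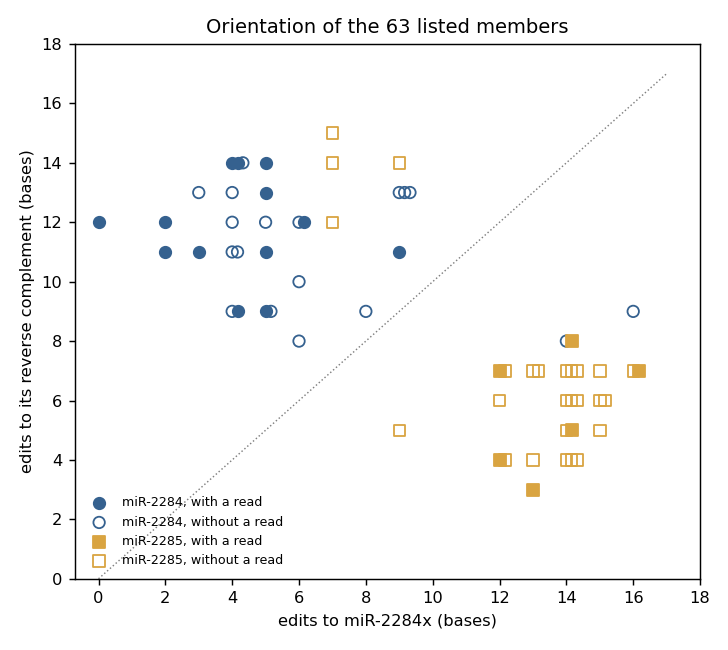
Each of the 63 members by its edits to miR-2284x (horizontal axis, bases) and to the reverse complement of miR-2284x (vertical axis, bases), with circles for miR-2284, squares for miR-2285 and filled symbols for members with a read in any library. Symbols at the same position are set side by side. The dotted line marks equal distance: 33 members lie above it, 13 of them with a read, and 30 lie below it, 6 of them with a read.

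The letters also set the families apart from the rest of the table. All 63 sequences were distinct, but they had only 41 different seeds. The median G and C content was 36.4% in the members and 50% in the other 720 rows. A second member within 2 edits was found for 35 members, or 55.6%, against 13.3% of the other rows that had such a neighbour among themselves. The run AAAAGTT was present in 22 members (34.9%) and in 0 other rows. Its reverse complement AACTTTT was present in 19 members (30.2%) and in 0.417% of the other rows. GTTCGTT, which lies within miR-2284x, was found in 17 members (27%) and 0.139% of the other rows, and its reverse complement AACGAAC in 8 members (12.7%) and the same share of the other rows. AAAAGTT and GTTCGTT can overlap by their end letters in 1 sequence.

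The commonest seed, AAAAGTT, was shared by 8 members, of which miR-2284ab, miR-2284d, miR-2284j, miR-2284k and miR-2284m had reads. miR-2284x did not have this seed. It carries the same letters 1 base further in, and its own seed, GAAAAGT, occurred in no other row of the table. In miR-2284y, bases 1 to 19 are the same as bases 3 to 21 of miR-2284x, so that the pair differ at their ends alone. miR-2284aa is contained in miR-2284z, which has 1 base more. The authors counted only tags that matched perfectly, and how a tag that fits more than 1 member was assigned is not given in the sources used here, so the split of reads between such members is uncertain.

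In the RefSeq annotation of the assembly ARS-UCD2.0, which is not the build used for these libraries, 191 of 1032 miRNA genes (18.5%) bear a name of these families, 43 as miR-2284 and 148 as miR-2285. Of the 191 genes, 125 (65.4%) lay within the span of a protein-coding gene, as did 65.3% of the 841 other miRNA genes. A gene was matched by name for 62 of the 63 members, the exception being miR-2284d. The 49 members with a single gene had 689 reads, of which miR-2284x gave 550 and miR-2284ab 94. The 13 members with 2 to 7 genes had 19 reads. A read was seen for 12 of the 49 and for 6 of the 13. miR-2284x lies within TIAM1, which encodes an activator of the small GTPase RAC1. miR-2284ab lies within AFF1, a gene for a factor of transcription elongation. miR-2284w lies within DOCK11, an activator of CDC42, miR-2285p within MPP7, a scaffold protein of cell junctions, and miR-2285t within FCGR2B, the inhibitory IgG receptor of B cells and myeloid cells. miR-2284z has 7 genes, which means that its reads cannot be traced to 1 of them. Whether miRNA and spanning gene have the same strand was not tested.

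The libraries held 21466 (SH2) to 77433 (SH3) reads of known miRNAs with a median of 41190. Reads were calculated back from the deposited tags per 1000000 mapped reads and scaled with TMM (trimmed mean of M values) factors to the mean depth. These normalized reads are the unit below. A count of 3 reads, taken as the limit of what a count of 0 allows, was between 1.81 (SH3) and 6.03 (SH2) normalized reads. The blood miRNA list (miR-486, miR-451, miR-223 and others) had reads for 10 of 10 miRNAs, with a summed level of 8985 to 12857 (UL), 11608 to 15785 (UH), 8678 to 13022 (SL) and 7426 to 14286 (SH). The ratio of miR-451 to miR-23a, a sign of red cell lysis, was 0.18 to 0.5 (UL), 0.0854 to 0.5 (UH), 0.118 to 0.295 (SL) and 0.273 to 0.639 (SH). Its part in the differences below was not tested.

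Most of the listed members were not seen. Of the 63 members, 19 had at least 1 read in any library, 13 of miR-2284 and 6 of miR-2285, and 44 were at 0 in all 12 libraries, 18 of miR-2284 and 26 of miR-2285. The share with a read was 30.2%, against 44% of the other 720 rows. Among these, the 240 rows numbered from miR-2286 to miR-2488 had a lower share than the members, 13.75%. For a member at 0 throughout, the 534136 reads of all libraries allow a level of up to 5.62 per 1000000 reads of known miRNAs, counting error only. When a group needed 2 of its 3 libraries to hold a read, 8 members (12.7%) were detected in any group. This compares with 31.9% of the other rows and 3.33% of those numbered from miR-2286 to miR-2488. The UL group had 6 of the members, UH had 5, SL had 4 and SH had 3. Of the other 720 rows, 195 (UL), 199 (UH), 178 (SL) and 168 (SH) were detected by this rule, so fewer were detected in the S groups there too. Among the members, miR-2284x and miR-2284ab were detected in all 4 groups. The others were miR-2284w in UL and SL, miR-2284z in UL and SH, miR-2284k and miR-2285o in UL and UH, miR-2285t in SL and miR-2285p in UH.

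A library had reads of 5, 5 and 8 members in the UL group, 4, 7 and 9 in UH, 4, 6 and 6 in SL, and 3, 3 and 6 in the SH group. With every library thinned to the 21466 reads of the smallest one, the expected number was 3.47 to 5.13 for UL, 3.81 to 5.63 for UH, 3.56 to 5.09 for SL and 2.76 to 3.1 for SH. The SH libraries lay below all others on this scale. The other rows of the table were not thinned, so it is not shown whether this is particular to the members. The unthinned counts of SH overlapped with those of the other 3 groups.

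**Figure D2:**
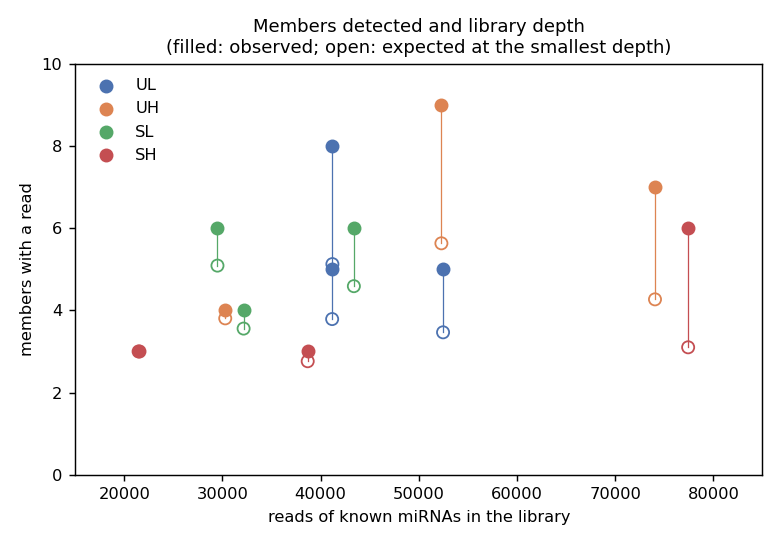
Members with a read in each library (vertical axis) against the reads of known miRNAs in that library (horizontal axis), coloured by group. Filled points are the numbers observed and open points the numbers expected when each library is thinned to 21466 reads: observed numbers run from 3 to 9 and expected ones from 2.76 to 5.63.

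Together the members made up a small part of the EV-miRNAs. They had 709 of 534136 reads, or 0.133%, and between 0.0792% (SH2, 95% Wilson interval 0.0495 to 0.127%) and 0.194% (UL3, 0.156 to 0.242%) of the known miRNA reads of a library. By comparison, the let-7 family with 10 rows took 46.3% of the reads. The 240 rows numbered from miR-2286 to miR-2488, which come from the same span of miRNA numbers, had 291 reads, with 33 rows seen. Within the families, 680 reads belonged to miR-2284 and 29 to miR-2285.

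The sum over the members was 45.2, 58.7 and 79 normalized reads in UL1, UL2 and UL3 (61 ± 17.1, SD, n = 3). It was 45.5, 59.8 and 65.4 in UH1, UH2 and UH3 (56.9 ± 10.3, n = 3). In SL it was 73.7, 67 and 55.6 (65.4 ± 9.12, n = 3), and in SH it was 45.7, 34.2 and 59 (46.3 ± 12.5, n = 3). The ranges overlapped in all 4 comparisons. As log2 ratios of the group means, UH vs. UL differed by -0.10, SH vs. SL by -0.50, UH vs. SH by 0.30 and UL vs. SL by -0.10. No P value is given for these sums.

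Between libraries assumed to be of the same heifer, the sum did not go in 1 direction. The log2 ratio of the S to the U library was 0.71, 0.19 and -0.51 in the L heifers and 0.00, -0.81 and -0.15 in the H heifers. L1 had the strongest increase and H2 the strongest decrease, and heifers of both classes differed among themselves in direction or size.

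**Figure D3:**
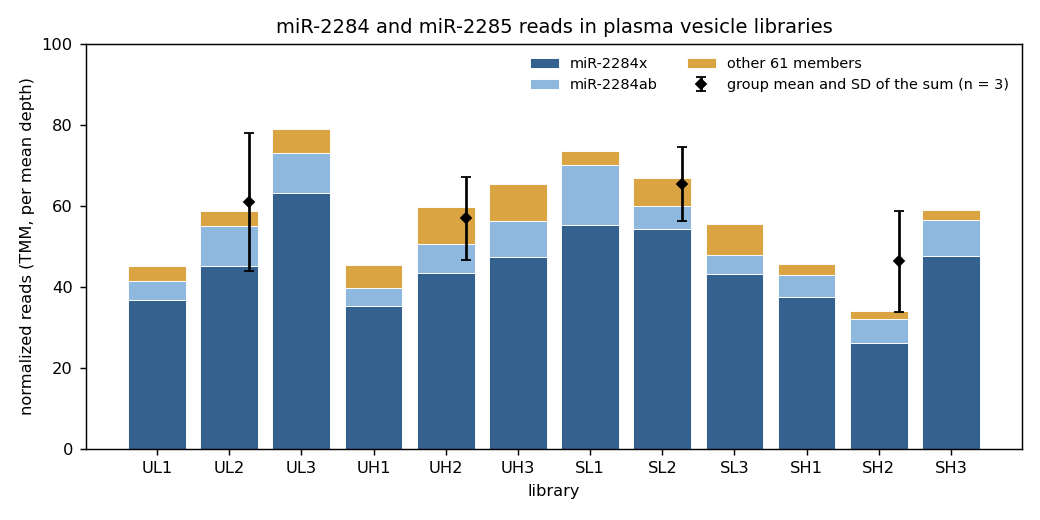
Normalized reads of miR-2284x, miR-2284ab and the other 61 members, stacked for each of the 12 libraries. Diamonds and error bars give the mean and SD of the sum in each group (n = 3): the sum ranges from 34.2 (SH2) to 79 (UL3), and miR-2284x takes 72.4 to 82.4% of the family reads of every library.

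miR-2284x was the main member of the families in every library. Its 550 reads were 77.6% of all reads of the members, and by level it was between the 54th and the 69th miRNA of a library. The libraries had 40, 50 and 64 reads in UL, 24, 61 and 63 in UH, 45, 55 and 28 in SL and 28, 13 and 79 in SH. After scaling, these were 36.9, 45.1 and 63.2 normalized reads in UL (48.4 ± 13.5, SD, n = 3) and 35.2, 43.4 and 47.4 in UH (42 ± 6.19, n = 3). In the superstimulated cycle, they were 55.3, 54.2 and 43.3 in SL (50.9 ± 6.63, n = 3) and 37.6, 26.1 and 47.6 in SH (37.1 ± 10.7, n = 3). The means were in the order SL, UL, UH and SH, and the ranges of neighbours in this order overlapped. Over the 12 libraries, the highest level was 2.42 times the lowest, while the reads before scaling differed by 6.08 times.

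miR-2284x did not pass the test in any comparison. In the limma fits over all miRNAs tested, with log2 values of normalized reads + 1, its log2 difference was -0.18 (SE 0.35, adjusted P = 0.963) for UH vs. UL and -0.48 (SE 0.41, adjusted P = 0.697) for SH vs. SL. It was 0.20 (SE 0.51, adjusted P = 0.922) for UH vs. SH and -0.10 (SE 0.30, adjusted P = 0.968) for UL vs. SL. With SEs of 0.30 to 0.51, differences of these sizes could not be told from 0.

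miR-2284ab, the other member seen in all 12 libraries, had 94 reads, or 13.3% of the total. Its reads were 5, 11 and 10 in UL, 3, 10 and 12 in UH, 12, 6 and 3 in SL and 4, 3 and 15 in SH. Scaled, they came to 4.61, 9.93 and 9.88 normalized reads in UL and 4.4, 7.11 and 9.02 in UH, and to 14.7, 5.91 and 4.64 in SL and 5.37, 6.03 and 9.04 in SH. SL1 was the highest library and UH1 the lowest, and all groups overlapped. The log2 difference was -0.20 (SE 0.66) for UH vs. UL, -0.15 (SE 0.71) for SH vs. SL, -0.01 (SE 0.81) for UH vs. SH and 0.04 (SE 0.63) for UL vs. SL, with adjusted P values of 0.979, 0.924, 0.99 and 0.998 from limma.

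The other 17 members with reads had 65 reads between them. Among the 19 members seen, 15 never had more than 2 reads in a library, and 9 had a single read in all. As a sum, the 17 members were at 3.69, 3.61 and 5.93 normalized reads in UL (4.41 ± 1.32, n = 3) and at 5.87, 9.25 and 9.02 in UH (8.05 ± 1.89, n = 3). They were at 3.68, 6.9 and 7.73 in SL (6.1 ± 2.14, n = 3) and at 2.69, 2.01 and 2.41 in SH (2.37 ± 0.34, n = 3). The SH libraries, with 2, 1 and 4 reads, lay below all 9 others. The log2 ratio of the means was -1.37 for SH vs. SL and 1.76 for UH vs. SH, both without overlap, and 0.87 for UH vs. UL and -0.47 for UL vs. SL, both with overlap. A count of 3 reads is 6.03 normalized reads in SH2, above the 3.68 of SL1 and the 5.87 of UH1. The lack of overlap is therefore uncertain. In UH, miR-2284w gave 8 of the reads of UH2 and miR-2285t gave 5 of those of UH3. How many other rows with few reads lack overlap was not tested. The sum excludes miR-2284x and miR-2284ab because of their read numbers, so it is given as a description.

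**Figure D4:**
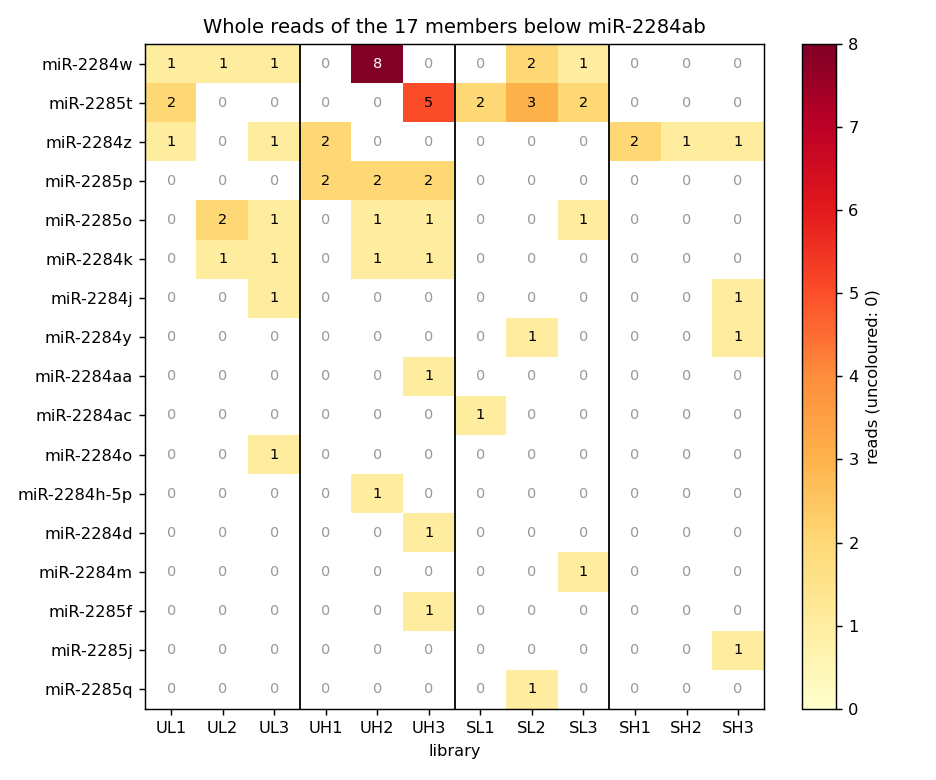
Whole reads of the 17 members below miR-2284ab (rows) in each of the 12 libraries (columns), with vertical lines between the groups and darker colours for more reads. The highest values are 8 reads of miR-2284w in UH2 and 5 reads of miR-2285t in UH3, and the SH columns hold 2, 1 and 4 reads.

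miR-2285 members were seen in all libraries but SH1 and SH2. Their sum was 2, 2 and 1 reads in UL, 2, 3 and 9 in UH, 2, 4 and 3 in SL and 0, 0 and 1 in SH. The 1 read in SH3 was of miR-2285j. On the normalized scale, the libraries ranged from 0.988 to 1.84 for UL, from 2.13 to 6.77 for UH, from 2.46 to 4.64 for SL and from 0 to 0.602 for SH. All these values are at or near the level that 3 reads stand for, except in UH3.

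The comparison of H and L heifers in the unstimulated cycle asked whether EV-miRNAs differ ahead of superstimulation. The call required a log2 difference of 1 or more in either direction together with an unadjusted P no higher than 0.05. For UH vs. UL, 7 members could be tested and 1 of them, miR-2285p, was called, where 6 of all 227 miRNAs tested were called (2.64%). The median log2 difference was -0.11 over the members tested and 0.04 over all miRNAs. miR-2285p had 0, 0 and 0 reads in UL and 2, 2 and 2 in UH, which is 2.94, 1.42 and 1.5 normalized reads. It was thus present in each UH library and seen in no UL library, always at or below the limit of 3 reads. It passed the filter on low reads only through UH, the group where it was higher, so its call is no independent support for a difference. The fitted log2 difference was 1.53 (SE 0.58, unadjusted P = 0.0175, adjusted P = 0.929 from limma). Since both groups were at or below this limit, no fold is given, and the fitted value depends on the 1 normalized read that was added: with 2 added it was 0.96 and was no longer called.

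Of the members tested in UH vs. UL that were not called, miR-2284w had 1, 1 and 1 reads in UL and 0, 8 and 0 in UH. Its 8 reads in UH2 were the highest count of any of the 17 members. miR-2285o had 0, 2 and 1 reads in UL and 0, 1 and 1 in UH, and miR-2284k had 0, 1 and 1 reads in both groups. miR-2284z had 1, 0 and 1 reads in UL and 2, 0 and 0 in UH. All of these overlapped between the groups. In limma, an adjusted P below 0.05 was found for 0 of 227 miRNAs, and an unadjusted P up to 0.05 for 6, with 1 member among them.

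In the superstimulated cycle, miR-2285t and miR-2284z were called in opposite directions. For SH vs. SL, 5 members were tested and 2 were called, against 11 of 201 miRNAs (5.47%). The median log2 difference was -0.48 over the members and -0.08 over all miRNAs. miR-2285t had 2, 3 and 2 reads in SL and 0, 0 and 0 in SH, or 2.46, 2.96 and 3.09 normalized reads against 0. It was found in every SL library and in no SH library, and its log2 difference was -1.94 (SE 0.60, unadjusted P = 0.00864, adjusted P = 0.434 from limma).

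miR-2284z had 0, 0 and 0 reads in SL and 2, 1 and 1 in SH, or 0 against 2.69, 2.01 and 0.602 normalized reads. It differed from miR-2285t in being seen in SH and not in SL. miR-2285t passed the filter only through SL and miR-2284z only through SH, in each case the higher group, so the same limit holds for both calls. The log2 difference was 1.38 (SE 0.61, unadjusted P = 0.0457, adjusted P = 0.666 from limma), and the call was lost in 6 of 16 alternative settings, 3 of which leave out 1 library (SL2, SH1 or SH2). miR-2284w had 0, 2 and 1 reads in SL and 0, 0 and 0 in SH. Its log2 difference of -0.97 missed the thresholds. It too passed the filter only through SL, the higher group. Without SL1, the SL library with 0 reads of it, miR-2284w was called at -1.46 (log2). For the same reason that call is no independent support for a difference. For all 3 members, the reads were at or below 3 in each library, so that no fold is given. In limma, 0 of 201 miRNAs had an adjusted P below 0.05, and 11 had an unadjusted P up to 0.05, with 2 members among them.

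Between the cycles of H heifers, miR-2285p was again the called member. For UH vs. SH, 6 members were tested and 1 was called, against 12 of 212 miRNAs (5.66%), with a median log2 difference of 0.37 over the members and 0.14 over all miRNAs. The UH libraries held 2, 2 and 2 reads of miR-2285p, and the SH libraries 0, 0 and 0. It entered the fit only through UH, again the higher group. The log2 difference was 1.53 (SE 0.62, unadjusted P = 0.0227, adjusted P = 0.736 from limma). The call was lost without SH1 (unadjusted P = 0.0508) and without SH2 (unadjusted P = 0.0671). UH vs. UL and UH vs. SH share the UH libraries, so these 2 calls of miR-2285p rest on the same 6 reads. Without UH1, 8 miRNAs had an adjusted P below 0.05 in limma, 3 of them members: miR-2285p (adjusted P = 0.0175) and, with 1 read in UH2 and 1 in UH3 each, miR-2284k and miR-2285o (adjusted P = 0.0267 for both, log2 difference 0.79). miR-2284z was also called then, at -1.38 (log2), with 0 reads in UH2 and UH3 and entry only through SH, the higher group. UH1 held 0 reads of miR-2284k and miR-2285o, and its removal left near-equal values in UH against 0 in SH. All 3 members with a low adjusted P entered only through UH, so these values are no independent support for a difference. With all libraries, 0 of 212 miRNAs had an adjusted P below 0.05 in limma, and the unadjusted P was up to 0.05 for 12, with 1 member among them.

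Other members tested also had 0 reads in SH, but they had at most 1 read in a UH library, below the limit of 3 reads. How many other rows with few reads do the same was not tested. For both miR-2284k and miR-2285o, the UH libraries held 0, 1 and 1 reads and the SH libraries 0, 0 and 0, and both had a log2 difference of 0.53 (SE 0.52) that was not called with all libraries. For miR-2284z, which went the other way, the reads were 2, 0 and 0 (UH) and 2, 1 and 1 (SH), with a log2 difference of -0.72 (SE 0.74). miR-2285t could not be tested here, as only UH3 held reads of it, 5 in number.

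Between the cycles of L heifers, no member was called. For UL vs. SL, 7 members were tested and 0 were called, against 5 of 214 miRNAs (2.34%), or 3 with the library number, taken as the heifer, as a block. The median log2 difference was 0.04 over the members and 0.07 over all miRNAs. miR-2285t came nearest, with 2, 0 and 0 reads (UL) against 2, 3 and 2 (SL) and a log2 difference of -1.43 (SE 0.66, unadjusted P = 0.0544, adjusted P = 0.702 from limma). UL1 had as many reads of it as SL1 and SL3, and without UL1, the only UL library with a read of it, it was called. miR-2285t entered the fit only through SL, the higher group, so that call is no independent support for a difference. miR-2285o had 0, 2 and 1 reads (UL) against 0, 0 and 1 (SL), with a log2 difference of 0.38 (SE 0.63). miR-2284k and miR-2284z each had reads in 2 UL libraries and none in SL, with a log2 difference of 0.64 (SE 0.50) each. miR-2284k, miR-2284z and miR-2285o entered this fit only through UL, where they were higher. An adjusted P below 0.05 was found by limma for 0 of 214 miRNAs, and an unadjusted P up to 0.05 for 9, with 0 members among them.

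The last test asked whether the change from the U to the S cycle differed between H and L heifers. It was fitted over all 12 libraries as the change in H minus the change in L. Of 8 members tested, 2 were called, against 12 of 238 miRNAs (5.04%), and the median log2 difference was -0.23 over the members and -0.01 over all miRNAs. miR-2285p had a difference of -1.53 (SE 0.58, unadjusted P = 0.0171, adjusted P = 0.847 from limma), with its 6 reads all in UH, the only group through which it passed the filter. miR-2285t had a difference of -2.18 (SE 0.93, unadjusted P = 0.0296, adjusted P = 0.847). It went from 2, 0 and 0 reads in UL to 2, 3 and 2 in SL, and from 0, 0 and 5 in UH to 0, 0 and 0 in SH, and passed the filter only through SL. The call of miR-2285t was lost without UL2, without UL3 and without UH3, which holds all 5 of its UH reads. By limma, 0 of 238 miRNAs had an adjusted P below 0.05 and 12 had an unadjusted P up to 0.05, with 2 members among them.

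**Figure D5:**
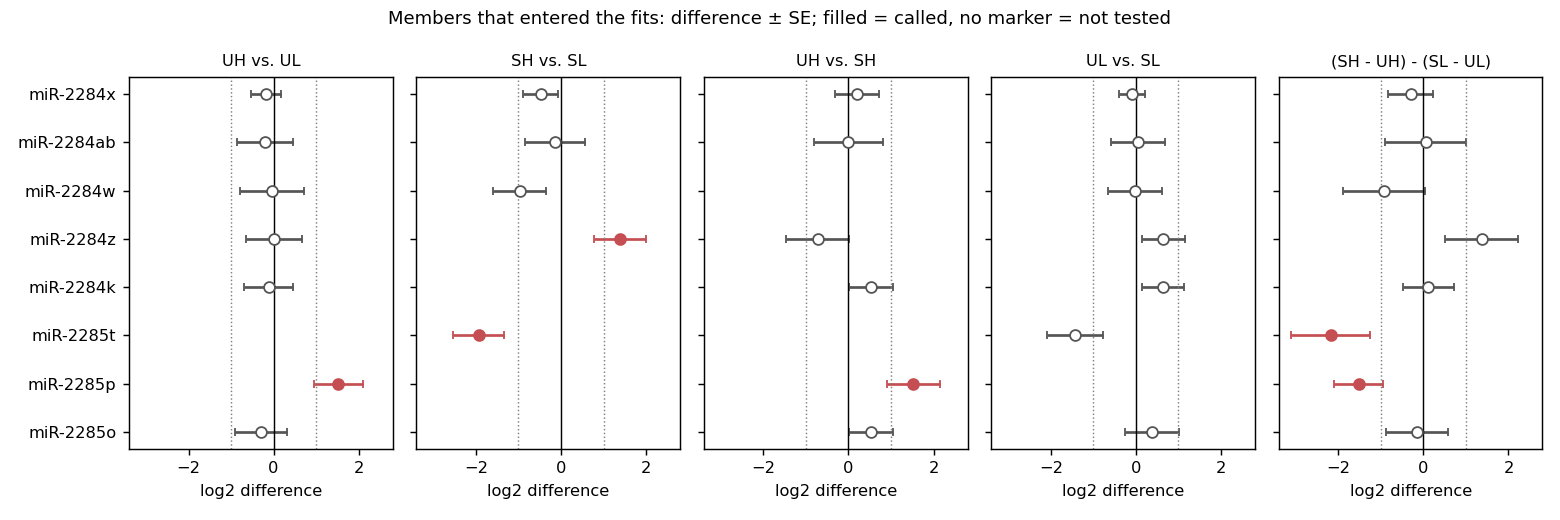
Log2 differences (horizontal axes) with SE bars from limma for the 8 members that entered a fit, in 5 panels for the comparisons; the panel at the right is the change between cycles in H minus that in L. Red filled points were called, dotted lines mark differences of 1 and -1, and a row without a point was not tested: miR-2285p and miR-2285t are called in 3 and 2 panels, miR-2284z in 1, and miR-2284x and miR-2284ab lie between -1 and 1 throughout.

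The remaining members were seen too rarely to be compared. miR-2284j had 1 read in UL3 and 1 in SH3, and miR-2284y had 1 in SL2 and 1 in SH3. A single read was found of miR-2284o in UL3, of miR-2284h-5p in UH2, of miR-2284ac in SL1, of miR-2285q in SL2 and of miR-2284m in SL3. UH3 had 1 read each of miR-2284aa, miR-2284d and miR-2285f, and SH3 had 1 of miR-2285j. These reads were spread over 7 libraries and all 4 groups. The members nearest to miR-2284x by edits, miR-2284j and miR-2284m, thus had 2 and 1 reads where miR-2284x had 550, and miR-2284y, with the longest shared run, had 2.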

How the data were processed

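Small RNA libraries of plasma EVs were made with exoRNeasy and QIAseq kits, the latter with unique molecular identifiers. Per the labels and the study's methods, the authors trimmed reads with Cutadapt, mapped them with Bowtie2 2.2.2 to UMD3.1, annotated perfect matches against miRBase, and used edgeR with TMM. The deposited values are a score: tags per 1000000 mapped reads that the authors cut to whole numbers, without TMM. They were read as whole reads times the step of a library. Rebuilding the values from these reads gave back 100% of those above 0 in every library. This holds by construction, since a step was accepted only if every value fitted it, so it is no check of the reads. The reads were not compared with the raw read counts that the paper lists in its supplement.

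TMM factors (30% trim of M, 5% of A) were calculated over 12 libraries with code written for this purpose. limma 3.58.1 (R 4.3.3) with a mean-variance trend was fitted, two-sided, to log2(normalized reads + 1) of the 2 groups compared, for miRNAs that 2 or more of the 3 libraries of either group held a read of. P values were adjusted by Benjamini-Hochberg over all miRNAs tested. No count test was run on the reads. The fits were tested on simulated data, where recovery of set changes was required only of miRNAs at higher levels than the called members. That test does not cover the called members. Members and lists were chosen with earlier results of these data known. Every member with a read is named with its reads, and members called or with a mean of at least 3 normalized reads are given with their fitted values. Exact permutation of 3 against 3 libraries cannot give a P below 0.1, so none was run.

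Within a group, each library was of another heifer and was counted separately. Reads of replicate pairs differed by more than sampling noise (chi-square over degrees of freedom 9.22 to 81.2). UMI-collapsed reads stand for molecules, and intervals and limits cover counting error only. The study sampled the same heifers in both cycles, but that equal library numbers mark the same heifer is an assumption. Deviations of 238 miRNAs from their group means correlated at 0.10, 0.06 and -0.05 within L heifers and at 0.05, 0.21 and 0.13 within H heifers for equal numbers, and at -0.24 to 0.15 for unequal ones. Sequence tables were made in Python 3.11.15 with pandas 2.3.3, numpy 2.4.6 and scipy 1.17.1, and figures with matplotlib 3.10.9. The number of columns left unused was 0.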

Additional observations from a re-analysis of the deposited data

Results flagged for a closer look

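For 2 of the 8 members tested, the change between cycles differed between H and L heifers, by the test of the difference itself at the unadjusted threshold. The same call was made for 12 of 238 miRNAs (5.04%). For miR-2285p the change in H minus that in L was -1.53 (log2), with 2 reads per UH library against 0 elsewhere. For miR-2285t it was -2.18 (log2), with 7 reads in SL, 2 in UL, 5 in UH and 0 in SH. miR-2285p passed the filter on low reads only through UH and miR-2285t only through SL, so both were selected through a group where they were high. Neither passed the adjustment over 238 miRNAs (adjusted P = 0.847 for both, limma). The call of miR-2285t was lost without UL2, without UL3 and without UH3. That of miR-2285p was lost without a filter and with 2 normalized reads added in place of 1.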

How the results depend on the processing

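No result changed direction while called. With at least 10 reads required, 0 members were called in UH vs. UL, SH vs. SL, UH vs. SH and the change between cycles (1, 2, 1 and 2 as reported), because 1 or 2 members then entered a fit. Of all miRNAs, 2 of 110, 5 of 106, 7 of 112 and 4 of 120 were called then. With a pseudocount of 2, the numbers of members were 0, 1, 0 and 1, against 4 of 227, 9 of 201, 10 of 212 and 10 of 238 miRNAs. Without a filter, the numbers of members were 1 in SH vs. SL, 1 in UL vs. SL and 1 for the change between cycles. These compare with 21, 22 and 16 of 783 miRNAs. Most residual variances were then 0 and limma warned that its estimates are unreliable. In UL vs. SL 1 member was also called without the mean-variance trend and when a single fit held the 4 groups. The calls over all miRNAs were then 6 and 10 of 214. The replicate block gave 1 member in SH vs. SL, where miR-2284z was lost and 14 of 201 miRNAs were called. It changed no other number of called members. In UH vs. UL and SH vs. SL the block joins different heifers under 1 number. When single libraries were left out, 1 to 1 members were called in UH vs. UL, 1 to 3 in SH vs. SL and 0 to 2 in UH vs. SH. The numbers were 0 to 1 in UL vs. SL and 1 to 3 for the change between cycles. In the same order, these fits called 5 to 10, 8 to 34, 6 to 24, 7 to 15 and 7 to 21 of all miRNAs. The 3 members in SH vs. SL were called without SL1, where 15 of 186 miRNAs were called. The 3 members for the change between cycles were called without UH1, where 9 of 232 were. The number of members for SH vs. SL was 1 without SL2, SH1 or SH2, and that for UH vs. SH was 0 without SH1 or SH2. Over all miRNAs, 34 were called in SH vs. SL and 24 in UH vs. SH without SH2, the smallest library, against 11 and 12 with it. The log2 ratio of family sums without miR-2284x was 0.25 for UH vs. UL and 0.70 for UH vs. SH. Leaving out single libraries gave -0.28 to 0.13 for UH vs. UL, -0.71 to -0.32 for SH vs. SL, 0.12 to 0.51 for UH vs. SH and -0.33 to 0.07 for UL vs. SL. Requiring at least 2 reads left 2 members detected in UL and 3 in UH, and a read in any library sufficed for 12 members of the UH group, 9 of SL and 6 of SH. The cause of these shifts was not tested. Of the other alternatives, 111 left their result unchanged within its limits. On the deposited values without TMM, the median log2 difference of all miRNAs moved from 0.04, -0.08, 0.14 and 0.07 to 0.15, 0.05, 0.27 and 0.18 for UH vs. UL, SH vs. SL, UH vs. SH and UL vs. SL. The numbers of called members stayed the same there, with 4, 7, 6 and 3 of all miRNAs called. Depth limits every member but miR-2284x, since miR-2284ab had only 3 reads in UH1, SL3 and SH2 and the others had at most 8 reads in a library.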

Other observations

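miR-2284i, which lies within TIAM1 like miR-2284x in the ARS-UCD2.0 annotation, had 0 reads in all 12 libraries, while miR-2284x had 550. Seeds of the families were seldom shared with other miRNAs of the table: AAACCTG was found in miR-2285ab, miR-2285ac and miR-2285f as well as in miR-2312, and the seed of miR-2285p, AAAACTT, in miR-2429. The seed of miR-2285a, AAAACTG, was also found in miR-7859, and that of miR-2284t-3p, AACTCGA, in miR-2435.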
